A study of Arabidopsis thaliana with 30 samples.

Results

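The 10 genes described here belong to the salicylic acid (SA) branch of plant defence. They are ICS1 (AT1G74710), SARD1 (AT1G73805), CBP60g (AT5G26920), EDS1 (AT3G48090), PAD4 (AT3G52430), NIMIN1 (AT1G02450), WRKY70 (AT3G56400), PR1 (AT2G14610), PR2 (AT3G57260) and PR5 (AT1G75040). They were taken by locus code from a table of 34212 Arabidopsis thaliana loci, and all 10 passed the filter on low counts that kept 19980 loci for testing. RNA was sequenced from whole rosettes of plants 3 weeks old that had spent the 6 h from sunrise to solar noon outdoors under plastic filters. Each library held RNA from 2 field blocks, each block sample being 5 pooled rosettes, and each of the 15 groups (3 genotypes under 5 filters) had 2 libraries, 30 in all.

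The genotypes were the wild type Ler, the mutant uvr8-2, which is impaired in the UV-B receptor UVR8, and the double mutant cry1cry2, which is impaired in the blue and UV-A receptors cryptochrome 1 and cryptochrome 2. Each genotype was represented by 1 line, and the labels give no parental accession for cry1cry2, so the receptor mutations and any other difference between lines cannot be told apart. The filters were long-pass and, going by their names, removed sunlight step by step. UVA+B let UV-B and UV-A through, UVA removed UV-B, UVA350 also removed short UV-A, UV0 removed all UV, and blue0 removed blue light as well. Each comparison of filters is the level under the wider minus that under the narrower spectrum. The UV-B step sets UVA+B against UVA, the short UV-A step UVA against UVA350, the long UV-A step UVA350 against UV0, and the blue step UV0 against blue0. Total UV sets UVA+B against UV0, and the full range sets UVA+B against blue0. These comparisons share libraries: total UV and the full range share UVA+B, adjacent steps share a filter, and every mutant comparison uses the Ler libraries.

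SA is a small phenolic hormone that accumulates in leaves under attack by biotrophic pathogens. Pathogen-induced SA is made mainly through isochorismate synthase ICS1, whose gene is switched on by the transcription factors SARD1 and CBP60g, and the lipase-like proteins EDS1 and PAD4 act together upstream in basal and receptor-triggered immunity. SA acts through NPR1, a transcriptional co-activator to which NIMIN1 binds and which NIMIN1 restrains. WRKY70 is a transcription factor induced by SA that favours SA-dependent over jasmonate-dependent gene expression. PR1, PR2 and PR5 encode secreted pathogenesis-related proteins, of which PR2 is a beta-1,3-glucanase and PR5 a thaumatin-like protein, and their transcripts are the standard readouts of SA signalling in leaves.

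The libraries held 12109222 to 22865826 estimated counts. Levels are given in CPM, counts scaled to a common library total (TMM-scaled CPM), and all 15 groups entered 1 edgeR quasi-likelihood fit. A gene is called changed where its Benjamini-Hochberg adjusted p over the 19980 genes is under 0.05, and errors on log2 differences are standard errors from that fit. With 2 libraries a group, each a pool, the p-values reflect how far pools differ and not how far single plants do. With 2 libraries on each side, values without overlap are also common where nothing changes. Statements on overlap below therefore describe the data and are not tests. In rosettes, fewer cells of a type and less RNA per cell cannot be told apart. All 5 leaf markers were abundant (17400 to 41200 CPM summed in a library), and in every genotype their lowest group total was under blue0. The 5 root markers summed to 26.6 to 85.8 CPM, highest in cry1cry2 under UV0 and mostly from PYK10, while the root hair gene COBL9 was at 0 in 20 libraries. The 5 flower markers summed to 1.34 to 6.89 CPM, and the 3 guard cell markers to 76.9 to 131 CPM. The 3 senescence markers summed to 24.6 to 79.9 CPM, mostly from SAG13 (21.5 to 78.7 CPM). SAG12 was at 0 in 21 libraries, and ORE1 reached at most 3.29 CPM. In 3 libraries more than 1% of the counts were from the chloroplast genome, namely uvr8-2 under blue0 replicate 2, cry1cry2 under UVA+B replicate 2 and cry1cry2 under UVA replicate 2. As a check of the labels, CRY1 and CRY2 transcripts were lower in cry1cry2 than in Ler when averaged over filters, by log2 values of -0.60 ± 0.05 and -0.54 ± 0.08 (adjusted p = 3.67e-08 and 4.37e-05). UVR8 transcripts were slightly higher in uvr8-2, with a log2 difference of 0.17 ± 0.04 (adjusted p = 0.00425), so the transcript level does not check that label.

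**Figure D1:**
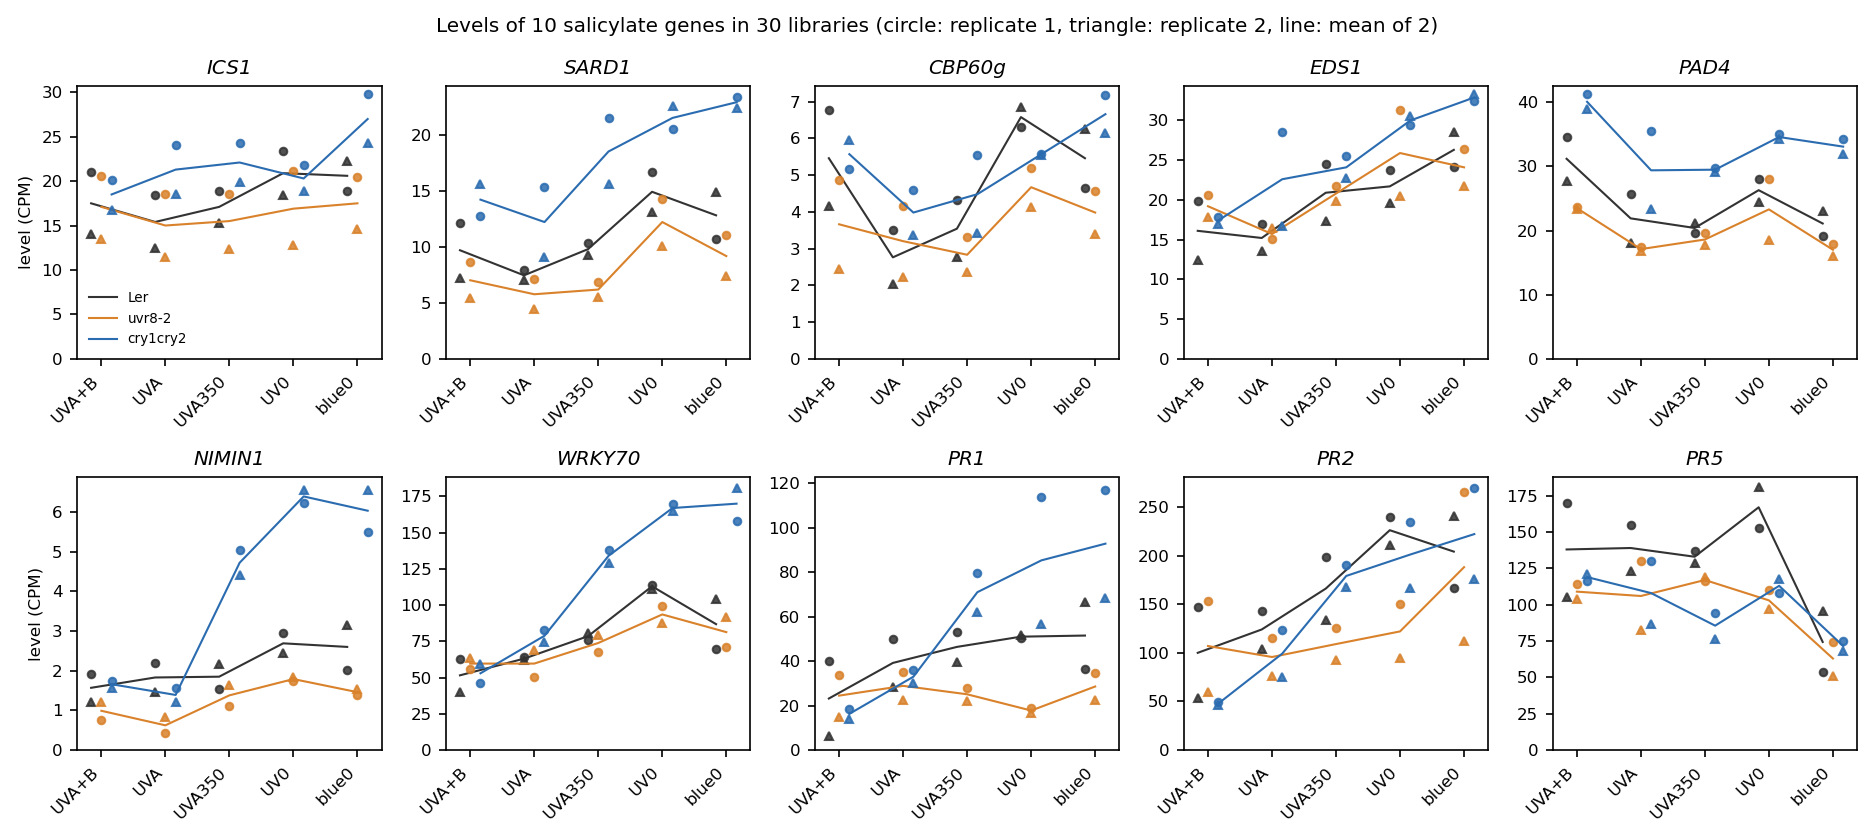
Levels of the 10 genes in CPM (linear axes that start at 0) under the 5 filters, from the widest spectrum at the left of each panel to the narrowest at the right. Circles and triangles are replicates 1 and 2, lines join the means of 2, and NIMIN1 and WRKY70 in cry1cry2 climb from 1.66 and 53 CPM under UVA+B to 6.39 and 167 CPM under UV0, while PR5 has its lowest mean of each genotype under blue0.

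Of the 460 tests of the 10 genes over 46 comparisons, 39 were called, 17 with a higher and 22 with a lower level in the first-named group. ICS1 and CBP60g had no call in any comparison of this fit, which has no replicate term, and NIMIN1 and WRKY70 had 9 each. Total UV and the full range together gave 17 calls, the single filter steps 3, the steps averaged over genotypes 4, the mutants against Ler under 1 filter 5, and the mutants against Ler averaged over filters 10. No call was made in the 12 comparisons of a mutant's filter response with that of Ler. Over all genes, the share called ran from 0% (as in the long UV-A step in Ler) to 43.5% (full range in Ler). The counts are therefore to be read beside the shares of all genes, which are given with each comparison below.

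For total UV, 17.8% of all genes were called in Ler, 0.771% in uvr8-2 and 34.1% in cry1cry2, against 1, 0 and 5 of the 10 SA genes. In uvr8-2 3 of the 10 had an unadjusted p under 0.05 for total UV, and DESeq2 also called 0. For the full range, 43.5% of all genes were called in Ler, 24% in uvr8-2 and 43.1% in cry1cry2, against 4, 1 and 6 of the 10. Counts out of 10 genes are coarse, and they were not tested against the shares of all genes. The number of calls is therefore not read as setting the 10 genes apart from other genes. Direction was uneven. In cry1cry2 all 5 calls for total UV were lower under UV, with a median log2 change over the 10 genes of -0.70 against -0.03 over all genes. The corresponding medians over the 10 genes were -0.52 in Ler and -0.28 in uvr8-2, where the medians of all genes were 0.00060 and 0.0017.

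The isochorismate synthase gene ICS1 had a narrow range of levels and no called difference in the fit of all groups. Its libraries read 21 and 14.1 CPM in Ler under UVA+B, 23.4 and 18.4 under UV0, and 18.9 and 22.3 under blue0. In uvr8-2 they read 20.6 and 13.5 CPM under UVA+B and 20.5 and 14.6 under blue0. In cry1cry2 they read 20.1 and 16.8 CPM under UVA+B and 29.8 and 24.3 under blue0, so only in cry1cry2 did the libraries of the widest and the narrowest filter not overlap, and that difference of -0.55 ± 0.30 was not called (adjusted p = 0.147). Fitted within cry1cry2 alone it was called (-0.53, adjusted p = 0.0223). The highest group mean, 27 CPM in cry1cry2 under blue0, was 1.8 times the lowest, 15 CPM in uvr8-2 under UVA. The libraries of all 14 pairs of neighbouring groups in that order overlapped. Neighbours in such an order have the closest means, so their overlap is largely set by the sorting, here and for the genes below. ICS1 was also higher in replicate 1 in 14 of 15 groups, which widens the overlap. With a replicate block it gained calls, given in the closing section.

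SARD1, which encodes an activator of ICS1, differed by genotype. It ranged from 4.41 to 14.3 CPM over the 10 uvr8-2 libraries (median 7.23), from 6.99 to 16.7 CPM over the 10 Ler libraries (median 10.5) and from 9.1 to 23.4 CPM over the 10 cry1cry2 libraries (median 18). The ranges of adjacent genotypes overlapped, because the filters also spread the values. Averaged over filters, SARD1 was higher in cry1cry2 than in Ler by 0.71 ± 0.13 on the log2 scale (adjusted p = 0.000444), which was called in all 20 fits that left out 1 library. It was lower in uvr8-2 than in Ler, at -0.45 ± 0.14 (adjusted p = 0.0304), but 10 of 20 such fits lost this call, with adjusted p up to 0.0753. Total UV gave values of -0.62, -0.81 and -0.61 in Ler, uvr8-2 and cry1cry2, each with library values that did not overlap and none called (adjusted p = 0.174, 0.274 and 0.109). The highest mean was 22.9 CPM in cry1cry2 under blue0 and the lowest 5.75 CPM in uvr8-2 under UVA, 3.98 times apart, and the libraries of all 14 neighbouring pairs overlapped.

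CBP60g, the calmodulin-binding relative of SARD1, had no call in the fit of all groups. Its Ler libraries read 6.77 and 4.16 CPM under UVA+B, 3.5 and 2.02 under UVA, 4.32 and 2.77 under UVA350, 6.31 and 6.85 under UV0, and 4.66 and 6.26 under blue0. The means were thus lowest under UVA and UVA350, although single libraries of these and other filters overlapped. Averaged over genotypes, the UV-B step was 0.55 ± 0.21 (adjusted p = 0.0793) and the long UV-A step -0.65 ± 0.20 (adjusted p = 0.115). The first of these was called when any 1 of 3 libraries was left out, with adjusted p of 0.0482 without Ler UVA replicate 1, 0.0348 without uvr8-2 UVA replicate 1 and 0.0271 without uvr8-2 UVA+B replicate 2. Its highest mean was 6.66 CPM in cry1cry2 under blue0 and its lowest 2.76 CPM in Ler under UVA, and 13 of 14 neighbouring pairs overlapped.

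EDS1 and PAD4, whose proteins work as a pair, moved in opposite directions across the full range in Ler. EDS1 libraries of Ler read 19.9 and 12.4 CPM under UVA+B and 24.1 and 28.6 CPM under blue0, and those of cry1cry2 17.8 and 16.9 CPM against 32.4 and 33.3 CPM. In both genotypes every UVA+B library was below every blue0 library. The full range change was -0.71 ± 0.24 in Ler (adjusted p = 0.0223) and -0.92 ± 0.24 in cry1cry2 (adjusted p = 0.00368). The call in Ler was lost without Ler UVA+B replicate 2 (-0.40, adjusted p = 0.285) and without Ler blue0 replicate 2 (-0.58, adjusted p = 0.142), whereas the call in cry1cry2 held without any 1 of its 4 libraries. For total UV, EDS1 fell in cry1cry2 from 29.4 and 30.6 CPM under UV0, a change of -0.79 ± 0.24 (adjusted p = 0.0142). That call was lost in each of the 4 fits with 1 library left out, at nearly the same size (-0.74 to -0.83). In uvr8-2 the libraries read 20.6 and 17.8 CPM under UVA+B and 26.4 and 21.8 CPM under blue0, and the full range value of -0.33 ± 0.24 was not called (adjusted p = 0.343).

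The EDS1 values carry an uncertainty, because AT3G48080 is a close neighbouring copy and the quantification may split reads between the copies. The copy was low, at 0.732 to 5.63 CPM, and it moved the same way: its full range change in cry1cry2 was -1.98 ± 0.32 (AT3G48080, adjusted p = 4.26e-05). The order of EDS1 levels ran from 32.9 CPM in cry1cry2 under blue0 and 30 CPM in cry1cry2 under UV0, each apart from the next group, down to 15.2 CPM in Ler under UVA. The other 12 neighbouring pairs overlapped.

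PAD4 was higher under UVA+B than under UVA. Its libraries read 34.6 and 27.8 CPM under UVA+B and 25.7 and 18.1 CPM under UVA in Ler, 23.7 and 23.3 against 17.5 and 16.8 CPM in uvr8-2, and 41.3 and 38.9 against 35.5 and 23.3 CPM in cry1cry2. In each genotype both UVA+B libraries were above both UVA libraries. The UV-B step was 0.51 ± 0.19, 0.46 ± 0.19 and 0.45 ± 0.18 in Ler, uvr8-2 and cry1cry2, none called alone (adjusted p = 0.172, 0.756 and 0.108). Averaged over genotypes it was 0.47 ± 0.11 (adjusted p = 0.00499), a call that held in all 12 fits with 1 library left out. Total UV gave no call, with 0.25, 0.01 and 0.21 in Ler, uvr8-2 and cry1cry2 (adjusted p = 0.391, 0.994 and 0.397), and in uvr8-2 the mean was 23.5 CPM under UVA+B and 23.3 CPM under UV0. The UV-B step of uvr8-2 minus that of Ler was -0.05 ± 0.27 (adjusted p = 0.976). In cry1cry2 alone the step was called without cry1cry2 UVA replicate 1 (0.79, adjusted p = 0.0199). Across the full range PAD4 rose in Ler by 0.56 ± 0.19 (adjusted p = 0.0187), lost without Ler UVA+B replicate 1 (0.40, adjusted p = 0.169) or without Ler blue0 replicate 1 (0.43, adjusted p = 0.161).

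PAD4 also differed by genotype, with 16 to 28 CPM over the uvr8-2 libraries (median 18.2), 18.1 to 34.6 CPM over the Ler libraries (median 23.8) and 23.3 to 41.3 CPM over the cry1cry2 libraries (median 34.3). Averaged over filters it was higher in cry1cry2 than in Ler by 0.47 ± 0.08 (adjusted p = 2e-04), and this was called without any 1 library. It was lower in uvr8-2 by -0.27 ± 0.08 (adjusted p = 0.0255), a call lost in 6 of 20 such fits with adjusted p up to 0.0701. EDS1 was higher in cry1cry2 by 0.34 ± 0.11 (adjusted p = 0.0218), lost in 5 of 20 fits with adjusted p up to 0.069. The highest PAD4 mean was 40.1 CPM in cry1cry2 under UVA+B, apart from the next group, and the lowest was 17 CPM in uvr8-2 under blue0, with 11 of 14 neighbouring pairs overlapping.

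NIMIN1 had the largest relative range of the 10 genes, 10.2-fold between the highest and lowest group means. In cry1cry2 its libraries read 1.74 and 1.57 CPM under UVA+B, 1.57 and 1.2 under UVA, 5.04 and 4.4 under UVA350, 6.22 and 6.55 under UV0, and 5.5 and 6.56 under blue0. The values fell into a low pair of filters that pass short UV-A and a high set of filters that do not, with no overlap between them. In Ler the corresponding libraries read 1.92 and 1.21, 2.19 and 1.47, 1.54 and 2.16, 2.94 and 2.45, and 2.03 and 3.16 CPM. In uvr8-2 they ran from 0.427 to 1.83 CPM and were lowest under UVA. These are low levels: the uvr8-2 UVA libraries held 5.96 and 11 estimated counts.

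The short UV-A step of NIMIN1 in cry1cry2 was -1.76 ± 0.29 (adjusted p = 0.000843) and was called without any 1 of its 4 libraries. It was -0.02 ± 0.32 in Ler (adjusted p = 0.995) and -1.14 ± 0.40 in uvr8-2 (adjusted p = 1). The difference of the cry1cry2 step from the Ler step was -1.74 ± 0.43, with an unadjusted p of 0.000606 and an adjusted p of 0.585, so the steps were not shown to differ. Averaged over genotypes the step was -0.97 ± 0.20 (adjusted p = 0.00541), called in all 12 fits with 1 library left out. Total UV lowered NIMIN1 in cry1cry2 by -1.94 ± 0.28 (adjusted p = 1.81e-05) and the full range by -1.86 ± 0.28 (adjusted p = 1.62e-05), both called without any 1 library. In Ler the full range value was -0.73 ± 0.31 (adjusted p = 0.0611), which was called without Ler UVA+B replicate 1 (-1.08, adjusted p = 0.0331) and without Ler blue0 replicate 1 (-1.01, adjusted p = 0.0293).

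WRKY70 followed a similar course with smaller errors. Its cry1cry2 libraries read 46.5 and 59.6 CPM under UVA+B, 83.2 and 74.6 under UVA, 138 and 129 under UVA350, 170 and 165 under UV0, and 158 and 181 under blue0. Levels were thus higher at each removal of a UV band, with no overlap between UVA+B, UVA, UVA350 and UV0. The Ler libraries read 63 and 40.1, 64.3 and 61.9, 76.1 and 81, 114 and 111, and 69.7 and 104 CPM under the same filters. The uvr8-2 libraries read 55.9 and 63.5, 50.2 and 69.3, 68 and 79.7, 99.2 and 88, and 71.1 and 91.8 CPM. In all 3 genotypes both UV0 libraries were above both UVA+B libraries.

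Total UV lowered WRKY70 by -1.66 ± 0.20 in cry1cry2 (adjusted p = 2.9e-06) and by -1.13 ± 0.20 in Ler (adjusted p = 0.000527), and both calls held without any 1 of 4 libraries. In uvr8-2 the value was -0.65 ± 0.20 and was not called (adjusted p = 0.157). The full range change was -1.68 ± 0.20 in cry1cry2 (adjusted p = 1.42e-06) and -0.75 ± 0.20 in Ler (adjusted p = 0.00439). The latter was lost without Ler UVA+B replicate 2 (-0.46, adjusted p = 0.117) and without Ler blue0 replicate 2 (-0.42, adjusted p = 0.139). The difference of the full range change between cry1cry2 and Ler was -0.93 ± 0.28, with an unadjusted p of 0.00347 and an adjusted p of 0.496. The short UV-A step was called in cry1cry2 (-0.76 ± 0.20, adjusted p = 0.0353) and averaged over genotypes (-0.46 ± 0.11, adjusted p = 0.0254). The first call was lost in each of the 4 fits with 1 library left out (-0.66 to -0.83) and the second in 8 of 12. Both were lost without the libraries over 1% chloroplast counts, and the first also without the filter on low counts.

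In the order of NIMIN1 levels, cry1cry2 under UV0, blue0 and UVA350 stood first at 6.39, 6.03 and 4.72 CPM, and cry1cry2 under UVA350 was apart from the next group, Ler under UV0 at 2.69 CPM. The lowest was uvr8-2 under UVA at 0.625 CPM, and 11 of 14 neighbouring pairs overlapped. For WRKY70, cry1cry2 under blue0 and UV0 led with 170 and 167 CPM, overlapping each other, followed by cry1cry2 under UVA350 with 134 CPM, which was apart from both neighbours. The lowest was Ler under UVA+B at 51.6 CPM, close to cry1cry2 under UVA+B at 53 CPM, and 10 of 14 neighbouring pairs overlapped.

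**Figure D2:**
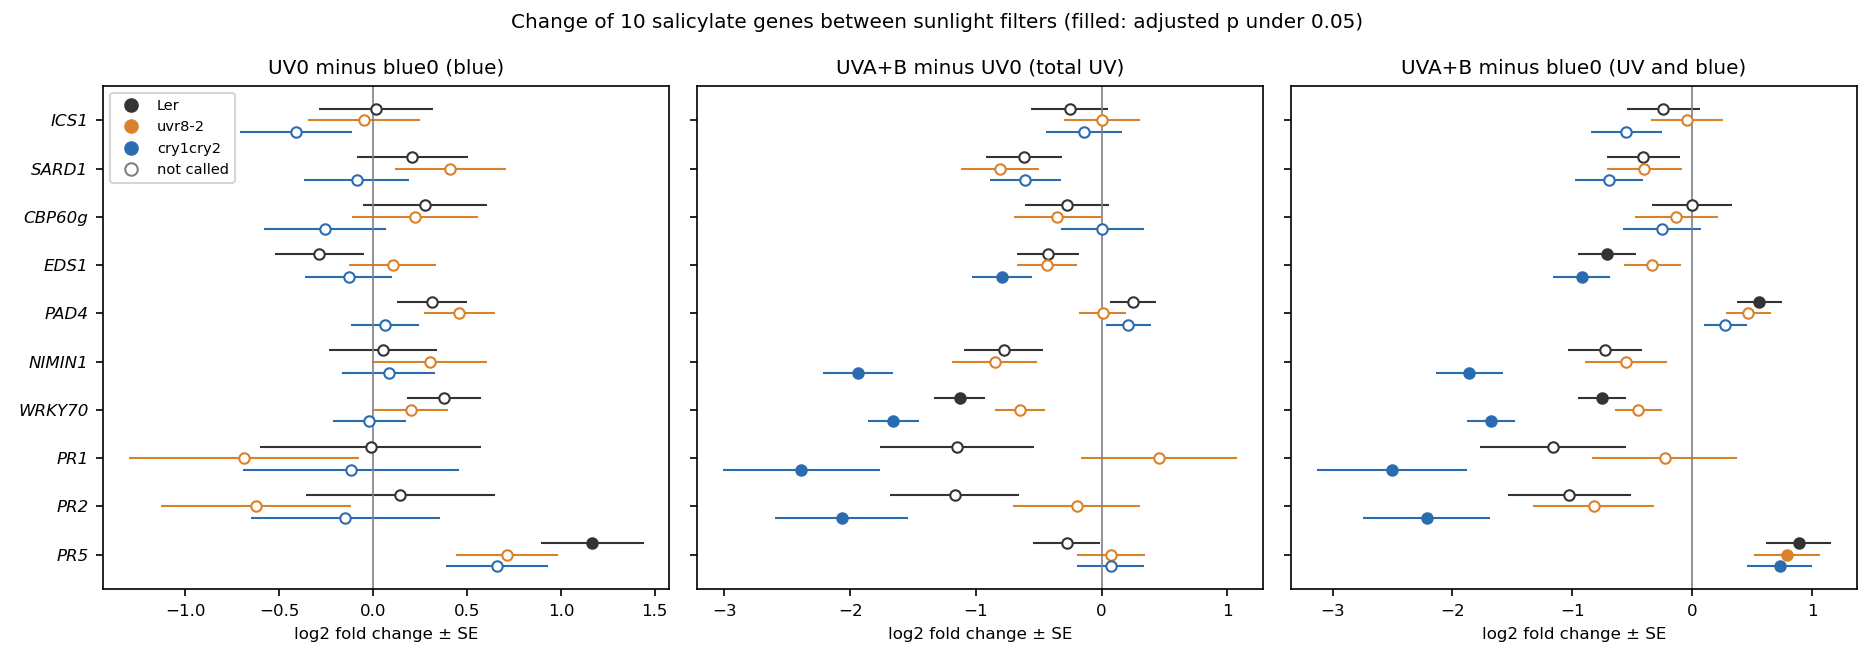
Log2 fold change (x axis, with standard errors) of each of the 10 genes (y axis) for the blue step, total UV and the full range in the 3 genotypes, where filled points are called. NIMIN1, WRKY70, PR1 and PR2 lie between -1.66 and -2.51 in cry1cry2 for total UV and the full range, and PR5 lies between 0.66 and 1.17 for the blue step.

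PR1 and PR2 fell with UV in cry1cry2. PR1 libraries of cry1cry2 read 18.4 and 14.2 CPM under UVA+B, 35.9 and 30.2 under UVA, 79.8 and 62.1 under UVA350, 114 and 56.5 under UV0, and 117 and 68.6 under blue0. All 4 libraries under UVA+B and UVA were below all 6 under the other filters, among which replicates differed widely. The total UV change was -2.39 ± 0.62 (adjusted p = 0.00735) and the full range change -2.51 ± 0.63 (adjusted p = 0.00401). The first was lost without cry1cry2 UV0 replicate 1 (-1.79, adjusted p = 0.0794) and without cry1cry2 UVA+B replicate 2 (-2.20, adjusted p = 0.0665). The latter library is one of those with over 1% chloroplast counts, and without all 3 such libraries neither PR1 value was called (-2.21 and -2.33, adjusted p = 0.0832 and 0.0559). In cry1cry2 the senescence markers, mostly SAG13, summed to 27.4 and 32.9 CPM under UVA+B and 43 and 25.9 CPM under UV0, which overlap.

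In Ler the PR1 libraries disagreed most under UVA+B, where they read 40.1 and 6.2 CPM. The other Ler libraries lay between 28.5 and 66.4 CPM, so the second UVA+B library alone was below all of them. The 3 senescence markers, a sum mostly of SAG13, came to 79.9 and 26.5 CPM in the same UVA+B libraries. Their part in the PR1 difference was not tested. Total UV gave -1.15 ± 0.61 in Ler (adjusted p = 0.218). Without Ler UVA+B replicate 1 the value was -3.04, which rests on the single UVA+B library at 6.2 CPM. The UVA+B library at 40.1 CPM, by contrast, was near the 50.4 and 51.6 CPM under UV0. On the 6.2 CPM library likewise, the full range value of -1.16 became -3.05 and the UV-B step of -0.77 became -2.66. With all libraries and a replicate block, the full range value in Ler was -1.38 and was called (adjusted p = 0.0333). The uvr8-2 libraries lay between 15.1 and 35.1 CPM under all 5 filters with a total UV value of 0.46 ± 0.62 (adjusted p = 0.824). The tested difference of total UV between cry1cry2 and Ler was -1.24 ± 0.86 (adjusted p = 0.763). PR1 means ran from 92.8 CPM in cry1cry2 under blue0 to 16.3 CPM in cry1cry2 under UVA+B, so the same genotype held both ends of the order, and all 14 neighbouring pairs overlapped.

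PR2 libraries of cry1cry2 read 49.8 and 45.9 CPM under UVA+B, 123 and 75.4 under UVA, 190 and 168 under UVA350, 234 and 167 under UV0, and 269 and 176 under blue0. The 2 UVA+B libraries were the lowest of the genotype. The total UV change was -2.07 ± 0.53 (adjusted p = 0.00605) and the full range change -2.22 ± 0.53 (adjusted p = 0.00284). The first lost its call without cry1cry2 UVA+B replicate 2 at nearly the same size (adjusted p = 0.0501), and the second held without any 1 of 4 libraries. In Ler the libraries read 147 and 53.7 CPM under UVA+B and 240 and 211 CPM under UV0, a value of -1.17 ± 0.51 (adjusted p = 0.13). Without Ler UVA+B replicate 1 it was -2.07, which rests on the single UVA+B library at 53.7 CPM. The full range value went from -1.02 to -1.92 in the same way. With all libraries and a replicate block, both PR2 values in Ler were called, as given in the closing section. In uvr8-2 the libraries read 153 and 60.1 CPM under UVA+B and 150 and 95 CPM under UV0, a value of -0.20 ± 0.51 (adjusted p = 0.918). The highest mean was 226 CPM in Ler under UV0 and the lowest 47.8 CPM in cry1cry2 under UVA+B, which alone was apart from its neighbour, the other 13 pairs overlapping.

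PR5 had lower levels where blue light was removed, and its averaged blue step was called, unlike those of PR1 and PR2. In the fit of all groups, without a replicate term, its total UV change was called in no genotype. Those of PR1 and PR2 were called in cry1cry2 only, but that of PR2 in Ler was also called with a replicate block. The genes were not tested against each other. PR5 libraries under UV0 and blue0 read 153 and 181 against 53.4 and 95.4 CPM in Ler, 110 and 97.1 against 74.6 and 51.3 CPM in uvr8-2, and 108 and 118 against 75 and 68.1 CPM in cry1cry2. In every genotype both UV0 libraries were above both blue0 libraries. The blue step was 1.17 ± 0.27 in Ler (adjusted p = 0.00597), 0.71 ± 0.27 in uvr8-2 (adjusted p = 0.0856) and 0.66 ± 0.27 in cry1cry2 (adjusted p = 0.628). The call in Ler was lost without Ler blue0 replicate 1 (0.81, adjusted p = 0.101) and without Ler UV0 replicate 2 (1.04, adjusted p = 0.0588). Averaged over genotypes the blue step was 0.85 ± 0.16 (adjusted p = 0.00049) and was called in all 12 fits with 1 library left out. The differences of the step from that of Ler were not called in cry1cry2 (-0.51 ± 0.38, adjusted p = 0.7) or in uvr8-2 (-0.45 ± 0.38, adjusted p = 1).

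Across the full range PR5 rose in all 3 genotypes, by 0.89 ± 0.27 in Ler (adjusted p = 0.0128), 0.79 ± 0.27 in uvr8-2 (adjusted p = 0.0415) and 0.73 ± 0.27 in cry1cry2 (adjusted p = 0.0366). Each of these calls was lost in some fits that left a group with 1 library, which have less power. The call in Ler was lost without Ler UVA+B replicate 1 (0.50, adjusted p = 0.204) or Ler blue0 replicate 1 (0.53, adjusted p = 0.18). The call in uvr8-2 was lost on leaving out any library but uvr8-2 blue0 replicate 1 (0.56 without uvr8-2 blue0 replicate 2). The call in cry1cry2 was lost without any 1 of its 4 libraries, at nearly the same size (0.69 to 0.81). Total UV values were -0.28 ± 0.27, 0.08 ± 0.27 and 0.07 ± 0.27 (adjusted p = 0.523, 0.942 and 0.869). Averaged over filters PR5 was lower in both mutants than in Ler, by -0.37 ± 0.12 in each (adjusted p = 0.0377 in uvr8-2 and 0.026 in cry1cry2). These calls were lost in 14 and 7 of 20 fits with 1 library left out. Both were also lost without the libraries over 1% chloroplast counts and without the filter on low counts. The full range calls in uvr8-2 and cry1cry2 were lost in the same settings. The full range call in Ler was lost in the fit within Ler alone. The 4 highest group means, 167 to 133 CPM, were those of Ler under the 4 filters that pass blue light, and the 3 lowest, 74.4, 71.6 and 63 CPM, were the 3 genotypes under blue0. Of the 14 neighbouring pairs, 12 overlapped. The leaf markers, too, were low under blue0, with 19000 and 17400 CPM in Ler against 29100 and 29200 CPM under UV0, and their part in the PR5 values was not tested.

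Filter by filter, few of the 10 genes were called. In Ler the UV-B, short UV-A, long UV-A and blue steps called 3.04%, 0.2%, 0% and 18.1% of all genes, against 0, 0, 0 and 1 of the 10. In uvr8-2 they called 0%, 0%, 0.0501% and 15.2%, against 0 of the 10 in every step. In cry1cry2 they called 14%, 3.54%, 0% and 0.175%, against 0, 2, 0 and 0. Over all 12 steps, 15 of the 120 tests of the 10 genes had an unadjusted p under 0.05, 5 in each genotype, and DESeq2 called 5 where edgeR called 3. The 2 calls in the short UV-A step of cry1cry2, NIMIN1 and WRKY70, stand against a share of 3.54% of all genes. Averaged over genotypes, the 4 steps called 14.9%, 4.06%, 1.24% and 29% of all genes, against 1, 2, 0 and 1 of the 10. For the long UV-A step 5 of the 10 had an unadjusted p under 0.05, edgeR called 0 and DESeq2 called 2, SARD1 and WRKY70. Over the 10 genes the median change of the long UV-A step was -0.40, -0.32 and -0.29 in Ler, uvr8-2 and cry1cry2, where all genes had medians of -0.0077, -0.00050 and 0.0081.

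Under a single filter uvr8-2 did not differ from Ler in any of the 10 genes by a called amount, where 15.2%, 0.245%, 0.01%, 0.135% and 0% of all genes were called under UVA+B, UVA, UVA350, UV0 and blue0. Of these 50 tests the unadjusted p was under 0.05 for 1, 1, 0, 2 and 1 genes under the respective filters, and DESeq2 called 0. For cry1cry2 against Ler the shares of all genes were 0.861%, 3.38%, 9.6%, 7.28% and 1.51%, against 0, 0, 2, 1 and 2 of the 10. Under UVA+B and UVA 0 and 3 of the 10 had an unadjusted p under 0.05, and DESeq2 called 0. All 5 calls were higher in cry1cry2 and were made under the 3 filters that remove short UV-A. NIMIN1 was higher by 1.34 ± 0.29 under UVA350 (adjusted p = 0.00459), 1.25 ± 0.27 under UV0 (adjusted p = 0.00649) and 1.22 ± 0.27 under blue0 (adjusted p = 0.0212). WRKY70 was higher by 0.77 ± 0.20 under UVA350 (adjusted p = 0.0175) and 0.97 ± 0.20 under blue0 (adjusted p = 0.0136). Under UVA+B the same differences were 0.09 ± 0.32 for NIMIN1 and 0.04 ± 0.20 for WRKY70.

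These single-filter calls were each lost in at least 1 fit that left a group with 1 library. Such fits have less power, so a lost call need not mean that the value rests on 1 library. NIMIN1 lost its call under UVA350 without Ler UVA350 replicate 1 (1.10, adjusted p = 0.0936) and under UV0 without Ler UV0 replicate 2 (1.11, adjusted p = 0.116). Under blue0 it was lost without Ler blue0 replicate 1 (0.92, adjusted p = 0.206), cry1cry2 blue0 replicate 1 (1.34, adjusted p = 0.0643) or cry1cry2 blue0 replicate 2 (1.07, adjusted p = 0.196). WRKY70 lost its call under UVA350 without any 1 of the 4 libraries, at nearly the same size (0.71 to 0.79). Under blue0 it was lost without Ler blue0 replicate 1 (0.70) or cry1cry2 blue0 replicate 2 (0.85).

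Some values that were not called crossed the threshold when 1 library was left out. WRKY70 did so in the blue step of Ler without Ler blue0 replicate 2 (0.71, adjusted p = 0.0465). Averaged over genotypes, its UV-B step did so without Ler UVA+B replicate 1 (-0.41) or uvr8-2 UVA replicate 1 (-0.36). That of PR1 did so without Ler UVA+B replicate 1 (-1.31), which leaves Ler under UVA+B with the single library at 6.2 CPM. PAD4 did so in the blue step of uvr8-2 without uvr8-2 UV0 replicate 2 (0.73, adjusted p = 0.0238). Its averaged blue step (0.28 ± 0.11, adjusted p = 0.0552) was called without that library (0.38, adjusted p = 0.0101) or without Ler blue0 replicate 2 (0.34, adjusted p = 0.0388).

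**Figure D3:**
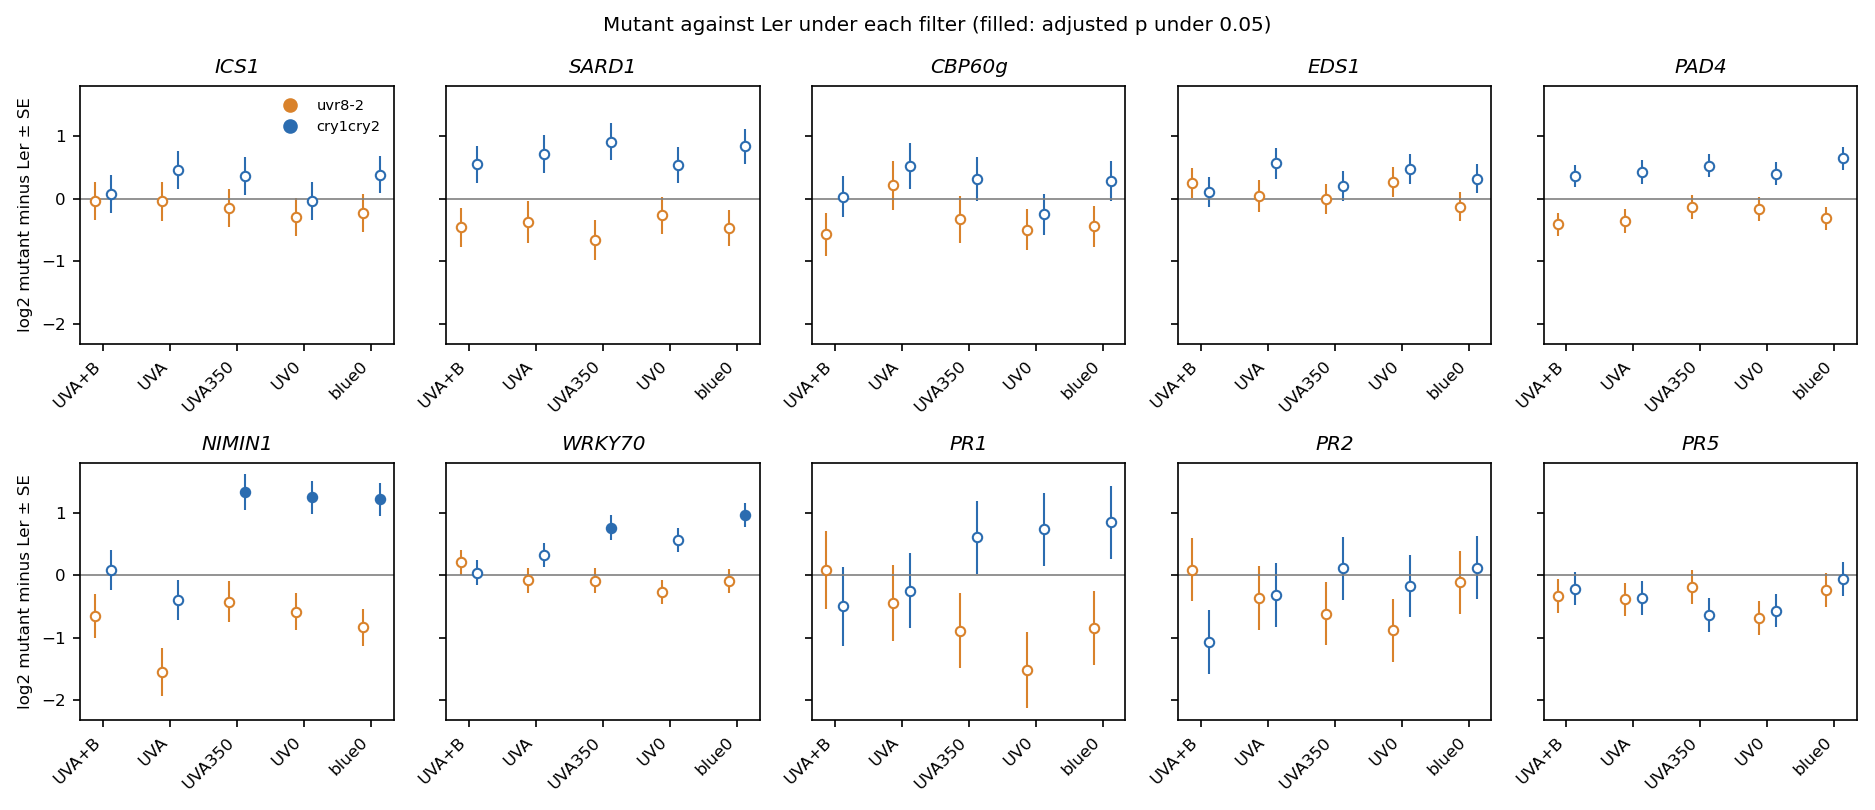
Log2 difference of each mutant from Ler (y axis, with standard errors) under the 5 filters (x axis), 1 panel a gene, where filled points are called. NIMIN1 in cry1cry2 goes from 0.09 under UVA+B to 1.34 under UVA350, and SARD1 and PAD4 lie above 0 in cry1cry2 and below 0 in uvr8-2 under all 5 filters.

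The root markers, followed as a sign of other tissue, summed to 38.1 to 85.8 CPM over the 10 cry1cry2 libraries. They summed to 32 to 67.9 CPM over those of Ler and 26.6 to 55.1 CPM over those of uvr8-2. The sum was mostly PYK10 (24.2 to 81.9 CPM over all libraries), so it follows mainly 1 gene. The gap to Ler was wide under UV0 in cry1cry2 (85.8 and 56.7 against 34.8 and 34.1 CPM) and under UVA+B in uvr8-2 (26.6 and 29.6 against 67.9 and 60.3 CPM), while under blue0 the cry1cry2 libraries overlapped those of Ler. The part of the root markers in the differences between genotypes was not tested. Averaged over the 5 filters, 21.1% of all genes were called between uvr8-2 and Ler and 32.4% between cry1cry2 and Ler, against 4 and 6 of the 10. All 4 calls were lower in uvr8-2 and 5 of the 6 were higher in cry1cry2, whereas over all genes the calls were split more evenly, 1979 higher and 2228 lower in uvr8-2 and 3250 higher and 3232 lower in cry1cry2. SARD1, PAD4 and NIMIN1 were called in both mutants with opposite signs. NIMIN1 was lower by -0.81 ± 0.15 in uvr8-2 (adjusted p = 0.000827) and higher by 0.70 ± 0.13 in cry1cry2 (adjusted p = 0.000393), and both calls held without any 1 of 20 libraries. WRKY70 was higher by 0.53 ± 0.09 in cry1cry2 (adjusted p = 0.000125), also without any 1 library, while its uvr8-2 values were within -0.27 to 0.21 under the single filters. PR1 was lower in uvr8-2 by -0.72 ± 0.27 without a call (adjusted p = 0.0716), with means of 25 CPM in uvr8-2 and 42.3 CPM in Ler. That value was called by DESeq2 (-0.73, adjusted p = 0.0427) and without Ler UVA+B replicate 2 (-0.88, adjusted p = 0.00827). PR1 in cry1cry2 was 0.29 ± 0.27 above Ler (adjusted p = 0.436). It was 0.67 above without Ler UVA+B replicate 1, which leaves Ler under UVA+B with the single library at 6.2 CPM. PR2 differed from Ler by a called amount in neither mutant (adjusted p = 0.257 and 0.4).

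Tests of whether a filter response differed between a mutant and Ler found 0 calls among the 10 genes in 120 tests, with 5 at an unadjusted p under 0.05 and 0 called by DESeq2. These tests called few genes of any kind. For uvr8-2 they called 0.00501%, 0%, 0%, 0%, 0.666% and 1.15% of all genes for the UV-B, short UV-A, long UV-A and blue steps, total UV and the full range. For cry1cry2 they called 0%, 0.015%, 0%, 0.546%, 0.0651% and 0.01%. The larger UV changes of NIMIN1, WRKY70, PR1 and PR2 in cry1cry2 are therefore not shown to differ from those in Ler. The 5 tests at an unadjusted p under 0.05 were 4 of NIMIN1 and 1 of WRKY70.

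Other genes of the SA pathway were followed as a list of 56, of which 55 passed the filter, in groups for SA synthesis, SA turnover, NPR and TGA co-regulators, the EDS1 node, other regulators, WRKY factors and SA-induced targets. For total UV in cry1cry2, 30 of 55 were called, 28 lower and 2 higher, with a list median of -0.85. That is 54.5% of the list, against 34.1% of all genes. The list was chosen with earlier results of these data known, so its shares and medians are descriptions and not independent support. Of the 11 SA-induced targets 8 fell, of the 11 WRKY genes 6, and of the 12 NPR and TGA genes 6 fell and 1 rose. The smallest adjusted p were those of LURP1, a target needed for basal defence against oomycetes (-2.49 ± 0.29, adjusted p = 3.49e-06), NDR1 (-1.14 ± 0.16, adjusted p = 1.86e-05), WRKY62 (-3.81 ± 0.59, adjusted p = 4.2e-05), WRKY60 (-1.55 ± 0.24, adjusted p = 4.44e-05), the ankyrin-repeat regulator ACD6 (-2.76 ± 0.41, adjusted p = 6.26e-05) and AT5G03350 (-2.75 ± 0.41, adjusted p = 7.32e-05).

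In Ler total UV called 14 of the 55, 12 lower and 2 higher, with a median of -0.48. That is 25.5% of the list, against 17.8% of all genes. LURP1 fell by -1.56 ± 0.28 (adjusted p = 0.000848). SAG101, a partner of EDS1, fell by -0.72 ± 0.16 (adjusted p = 0.00372), and ICS2, the second isochorismate synthase gene, by -1.75 ± 0.39 (adjusted p = 0.00393). TGA3, NIMIN2 and WAK1 completed the 6 with the smallest adjusted p, all lower. In uvr8-2 edgeR called 0 of the 55 for total UV, with 18 at an unadjusted p under 0.05, 2 called by DESeq2 and a median of -0.32. The list thus had negative medians in all 3 genotypes, where the medians of all genes lay within -0.03 to 0.0017. In the tests of the difference from Ler for total UV edgeR called 0 of the 55 for either mutant, with 2 and 11 at an unadjusted p under 0.05 for uvr8-2 and cry1cry2 and 0 and 1 called by DESeq2.

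**Figure D4:**
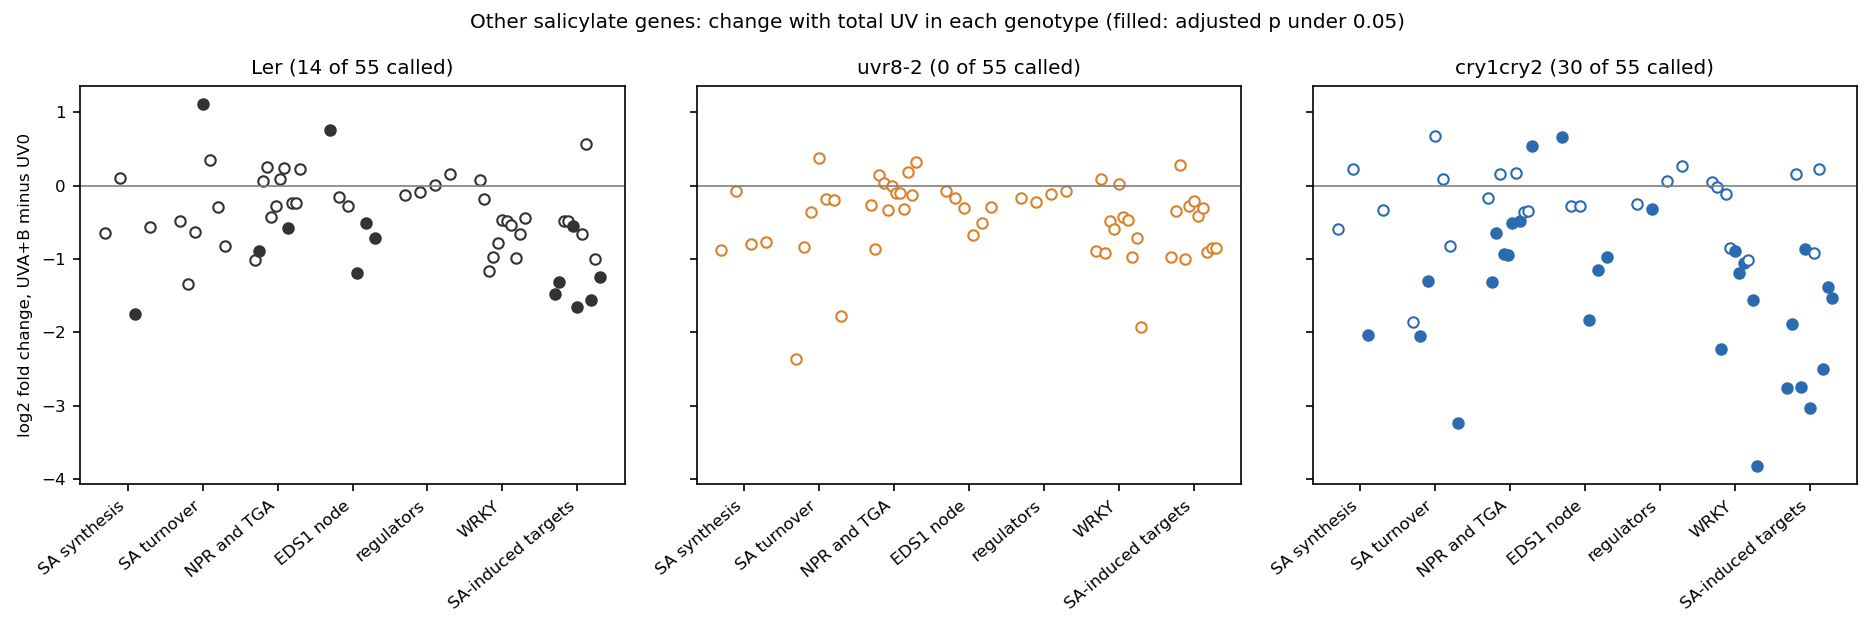
Log2 change with total UV (y axis) of the 55 other SA pathway genes past the filter, grouped by role along the x axis, in Ler, uvr8-2 and cry1cry2. Filled points are called, 14, 0 and 30 of 55 in the 3 panels, and most points of every panel lie below 0.

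Across the full range the list gave 37 calls in cry1cry2 (34 lower, 3 higher), 23 in Ler (18 lower, 5 higher) and 13 in uvr8-2 (11 lower, 2 higher), with medians of -0.88, -0.49 and -0.29. These are 67.3%, 41.8% and 23.6% of the list, against 43.1%, 43.5% and 24% of all genes, so the counts in Ler and uvr8-2 are at the level of all genes. LURP1, WRKY60, WRKY62, SAG101, ACD6 and AT3G48080 had the smallest adjusted p in cry1cry2, all lower, with WRKY62 at -3.95 ± 0.59 (adjusted p = 1.47e-05). In Ler the 6 were SAG101, MES9, ICS2, NPR1, WRKY60 and CAMTA1. Among these MES9, which encodes a methyl salicylate esterase, rose by 2.24 ± 0.36 (adjusted p = 5.91e-05), and NPR1 rose by 0.52 ± 0.11 (adjusted p = 0.000857). In uvr8-2 MES9 rose by 1.78 ± 0.37 (adjusted p = 0.00154), and UGT76B1, TGA1, SAG101, WRKY60 and NPR3 fell.

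For the blue step averaged over genotypes, 14 of the 55 were called, 9 higher and 5 lower with blue light, led by PCC1 (1.10 ± 0.20, adjusted p = 0.000401), NDR1 (0.46 ± 0.09, adjusted p = 0.000742) and MES9 (1.05 ± 0.21, adjusted p = 0.00107). That share of 25.5% lies under the 29% of all genes. For the UV-B step averaged over genotypes 6 were called, among them NPR1 (0.29 ± 0.07, adjusted p = 0.00418), which like PAD4 was higher with UV-B, and LURP1 (-0.52 ± 0.16, adjusted p = 0.0348), which was lower. That share of 10.9% lies under the 14.9% of all genes. In the short UV-A step of cry1cry2 3 were called (5.45%, against 3.54% of all genes), all lower: LURP1 (-1.09 ± 0.28, adjusted p = 0.0361), WRKY38 (-1.43 ± 0.38, adjusted p = 0.0436) and NDR1 (-0.59 ± 0.16, adjusted p = 0.0485).

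Averaged over filters, 24 of the 55 were called between cry1cry2 and Ler, 20 higher and 4 lower, and 12 between uvr8-2 and Ler, 4 higher and 8 lower. These are 43.6% and 21.8% of the list, against 32.4% and 21.1% of all genes, so the count in uvr8-2 is at the level of all genes. In cry1cry2 the 7 NPR and TGA genes, 5 WRKY genes and 5 SA-induced targets that were called were all higher, among them NPR3 (0.49 ± 0.08, adjusted p = 4.94e-05), NPR4 (0.39 ± 0.07, adjusted p = 0.000386), WRKY51 (0.82 ± 0.13, adjusted p = 4.67e-05), WRKY38 (1.00 ± 0.18, adjusted p = 0.00032) and PCC1 (1.05 ± 0.15, adjusted p = 5.64e-05). ADR1, a helper immune receptor of the EDS1 node, was lower (-0.67 ± 0.10, adjusted p = 2.28e-05). In uvr8-2 the 4 called WRKY genes, the 3 called SA-induced targets and NIMIN2 were lower. The 6 with the smallest adjusted p were WRKY38 at -1.30 ± 0.21 (adjusted p = 0.00043), WRKY18 at -0.65 ± 0.11 (adjusted p = 0.000725), GRX480 at -0.68 ± 0.13 (adjusted p = 0.00178), PCC1 at -0.75 ± 0.15 (adjusted p = 0.00234), NIMIN2 at -0.55 ± 0.11 (adjusted p = 0.00142) and AT5G03350 at -1.18 ± 0.18 (adjusted p = 0.00043).

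Over the 15 group means several of the 10 genes had similar profiles, and the highest correlations were as follows. Pearson's r was 0.901 between SARD1 and NIMIN1, 0.88 between ICS1 and SARD1, 0.878 between EDS1 and WRKY70, 0.873 between NIMIN1 and WRKY70, 0.847 between WRKY70 and PR1, and 0.819 both between SARD1 and CBP60g and between PR1 and PR2. PR5 stood apart, with r from -0.569 with EDS1 to 0.166 with PAD4. PAD4 had r of 0.207 with its partner EDS1, and its other values ran from -0.156 with PR2 to 0.736 with SARD1. These values describe groups that share genotypes, filters and libraries. Among 14530 loci with a mean of at least 5 CPM, the profiles most like that of WRKY70 were those of ANK (AT5G54610, r = 0.978), PLL4 (0.972), VSR6 (0.97), AT1G35710 (0.967) and ACD6 (0.967). Nearest to PR1 were TIR (AT1G72930, r = 0.944), AT1G07700 (0.936), the SA hydroxylase gene DMR6 (0.923), RLP19 (0.912) and AT1G69730 (0.91).

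PR2 was most like BG3 (AT3G57240, r = 0.971), a related glucanase gene near it with which reads could be shared, then AT2G21160 (0.969), AT3G19010 (0.965), RK1 (0.953) and AT5G08760 (0.953). ICS1 was most like SYP122 (0.936), AT5G25260 (0.932), AT1G56660 (0.926), AT4G03450 (0.901) and NUDT6 (0.893). PR5 was most like the nucleolin gene NUC-L1 (AT1G48920, r = 0.948), AT1G13730 (0.933), UBP23 (0.927), AT3G01820 (0.921) and AT5G02050 (0.921).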

How the data were processed

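The authors deposited 1 table of estimated counts per locus for the 30 libraries, made with kallisto after FastQC and Trimmomatic 0.33, per the submitters' processing notes. The kallisto version, the transcriptome and the way transcripts were joined to loci were not stated in the sources used here, so no coordinates and no sequences are given and no promoter was searched. Here the estimated counts were rounded, loci with low counts were removed (filterByExpr, minimum count 10) and 19980 were kept of 34212. They were scaled by TMM and fitted with edgeR 4.0.16 in R 4.3.3, with a robust quasi-likelihood fit of 15 group means and 15 residual degrees of freedom, adjusted by Benjamini-Hochberg within each of 46 comparisons. DESeq2 1.42.0, RLE scaling, no filter, a replicate block, fits within 1 genotype, and fits without libraries over 1% chloroplast counts or without each library in turn were alternatives. Where a group then has 1 library, that library is assumed to vary like the other groups. Such a fit has less power, so it can lose a call at an unchanged size. The members and lists were chosen with earlier results of these data known. All 10 members are named, with at most the 6 listed genes of smallest adjusted p in a comparison, and the 5 loci with the highest Pearson r for each of 5 members. The table's loci matched the RefSeq gene table for 97.7%, and 4 of the listed loci without a name there appear by locus code. Libraries held 12109222 to 22865826 counts.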

Additional observations from a re-analysis of the deposited data

How the results depend on the processing

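Of the 39 called values of the 10 genes, 17 kept their call in every fit that left out 1 of the libraries compared, 27 in every other alternative and 16 in all of them, and 0 reversed. Leaving out 1 library at a time gave 2 to 6 calls over the filter steps, 3 to 6 over the averaged steps, 13 to 21 for total UV and the full range, 0 to 0 for the differences between genotypes, 3 to 7 for the mutants under 1 filter and 6 to 10 for the mutants averaged over filters. DESeq2 gave 5 calls over the filter steps in place of 3. Without the filter on low counts the averaged mutant comparisons gave 6 calls in place of 10. The cause was not tested. The replicate numbers share no stated source. The correlation of the replicate differences between groups was 0.017 to 0.432 (median 0.182) and over 0.1 in 91 of 105 pairs of groups. ICS1 and PR2 were higher in replicate 1 in 14 of 15 groups, and PAD4 and PR1 in 13. Of all genes, 8.13% had the same replicate number higher in 14 or 15 groups. A replicate block gave 8, 10, 24, 0, 9 and 13 calls in the 6 families above in place of 3, 4, 17, 0, 5 and 10. With the block ICS1 was called for the full range in cry1cry2 (-0.55, adjusted p = 0.00341) and between cry1cry2 and Ler averaged over filters (0.25, adjusted p = 0.00504). CBP60g was called for the UV-B step in Ler (0.98, adjusted p = 0.0414), the UV-B and long UV-A steps averaged over genotypes (0.56 and -0.67, adjusted p = 0.0153 and 0.0113) and between uvr8-2 and Ler averaged over filters (-0.34, adjusted p = 0.044). PR2 was called in Ler for total UV (-1.28, adjusted p = 0.015) and the full range (-1.20, adjusted p = 0.0112), and PAD4 for the blue step in uvr8-2 (0.45, adjusted p = 0.0368) and averaged over genotypes (0.28, adjusted p = 0.0166). SARD1, WRKY70, PR1 and further comparisons of PAD4 also gained calls with the block.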
